A study of Mus musculus with 6 samples.

Results

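The E2F and retinoblastoma family was followed in RNA from mouse erythroid cultures. Its 10 members were taken by gene symbol: E2f1, E2f2, E2f3, E2f4, E2f6, E2f7 and E2f8, and the pocket protein genes Rb1, Rbl1 and Rbl2. All 10 were found among the 17060 genes listed in at least 1 library, and all 10 passed the filter on low counts. Lineage-negative cells were purified from the total bone marrow of wild-type mice and cultured in medium that contains erythropoietin. For 48 hours they received either NUP-17d, a small molecule that binds the pleckstrin family protein Plek2 and was used as a mixture of stereoisomers, or its solvent DMSO. Poly(A) RNA was sequenced from 3 libraries in each group. By the labels the groups share genotype, purification, medium and time, and differ by the compound. The labels give no age of the mice and do not say whether libraries came from separate cultures or animals, so the p-values measure the spread between these libraries, which may be technical.

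E2F proteins are transcription factors that bind the promoters of genes for DNA synthesis and cell division. E2f1, E2f2 and E2f3 are the activator members, and with a DP partner protein they switch on these genes as cells enter S phase. E2f4 works mainly as a repressor together with Rbl1 (p107) or Rbl2 (p130), and E2f6 represses with Polycomb proteins without a pocket protein. E2f7 and E2f8 repress without a DP partner. Rb1 and its relatives hold E2F proteins in check until cyclin-dependent kinases phosphorylate them. In the erythroid lineage E2f2, E2f4 and Rb1 are each known from mouse mutants to be needed for normal red cell maturation.

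The letters of an E2F site were found in windows around start sites of several family members, so these windows are shown first. The RefSeq promoter table of GRCm38.p6 holds 10 windows for 8 of the 10 members, each running from 250 bases before a start site and 50 bases from it on. A 7-base E2F core was searched on both strands as TTCCCGC or TTCGCGC or TTGGCGC. It occurred in 2652 of the 32851 windows in the table, or 8.07%. At least one of these windows held the core for E2f2, E2f3, E2f7, E2f8 and Rbl1, and none did for E2f1, E2f6 and Rbl2. The E2f1 window, chr2:154569377-154569676 on the minus strand, lies within the gene, which reaches to 154569892. The E2f8 window, chr7:48881547-48881846 on the minus strand, also lies within its gene, which reaches to 48882073. The bases before these outer ends of E2f1 and E2f8 were thus not searched. The E2f7 window held 3 matches and one E2f3 window held 2, whereas 0.871% of all windows held 2 or more. A match of letters is a description of the sequence and not a measured binding site. Capitals mark the E2F core in the stretches that follow, which were chosen because they hold these matches.
E2f2, chr4:136172294-136172323, plus strand: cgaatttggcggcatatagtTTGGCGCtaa
E2f7, chr10:110745189-110745438, plus strand: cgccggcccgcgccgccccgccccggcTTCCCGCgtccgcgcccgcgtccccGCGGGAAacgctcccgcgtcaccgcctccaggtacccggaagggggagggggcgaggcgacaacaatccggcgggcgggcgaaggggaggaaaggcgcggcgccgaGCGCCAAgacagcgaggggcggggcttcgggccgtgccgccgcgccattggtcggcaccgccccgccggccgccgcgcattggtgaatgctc
Rbl1, chr2:157204535-157204584, minus strand: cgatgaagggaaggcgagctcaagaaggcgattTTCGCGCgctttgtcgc

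Another short element, the CHR, is read by the DREAM complex of pocket proteins, E2f4 and MuvB proteins. Its letters TTTGAA were found on either strand in 17.9% of all windows. They were found in one window each of E2f2 and E2f3, and in those of E2f8 and Rbl2. The E2f2 window with the CHR, chr4:136180532-136180831, lies within the gene and is not the window with the E2F core. E2f8 and E2f3 held both elements within one window. In these 2 stretches capitals mark the E2F core and the CHR.
E2f8, chr7:48881597-48881746, minus strand: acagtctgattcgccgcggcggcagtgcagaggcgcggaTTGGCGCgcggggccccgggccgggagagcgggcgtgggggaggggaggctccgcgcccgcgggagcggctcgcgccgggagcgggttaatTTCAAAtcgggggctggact
E2f3, chr13:29986064-29986113, minus strand: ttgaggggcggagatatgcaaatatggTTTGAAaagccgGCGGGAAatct

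Library totals were nearly equal between the groups, at 20278433 to 20419018 expected counts with DMSO and 20076409 to 20170197 with NUP-17d. Their make-up was not equal, and hemoglobin genes, for one, took 18.3% to 20.3% of the counts with DMSO and 11.8% to 13.1% with NUP-17d. The comparison was made on counts scaled by edgeR's trimmed mean of M values (TMM), given as CPM, counts brought to a common library size. After this scaling the median log2 fold change of the 12306 tested genes was 0.014, whereas with library totals only it was 0.28. How much of that shift the hemoglobin genes account for was not tested. All 10 erythroid markers were present in every library and all fell, with summed levels of 23999 to 25801 CPM with DMSO and 14773 to 15634 CPM with NUP-17d. Klf1 and Gata1 among them stood at 0.028 and −0.067 with library totals only. Markers of other cells were present too. The summed neutrophil markers were 3837 to 3998 CPM with DMSO and 3908 to 4192 CPM with NUP-17d. Summed macrophage markers were 596 to 650 and 643 to 711 CPM, megakaryocyte markers 327 to 356 and 372 to 393 CPM, and stem and progenitor markers 304 to 309 and 315 to 331 CPM. Of the 6 macrophage markers 3 had a log2 fold change above 0 and 3 below, from −0.65 for C1qa to 0.30 for Cd68. Mast cell and basophil markers summed to 119 to 135 CPM with DMSO and 113 to 118 CPM with NUP-17d, and lymphoid markers to 8.43 to 9.51 and 6.55 to 7.20 CPM, both lower without overlap. In the mast cell and basophil set 4 of 5 log2 fold changes were below 0, with Mcpt8 furthest at −0.39, while Cpa3 was at 0.13. The part of these shifts in the results on the family was not tested. Plek2 itself was at 51.1, 50.9 and 55.9 CPM with DMSO and at 39.9, 38.5 and 41.2 CPM with NUP-17d. Its log2 fold change was −0.40 with TMM scaling (edgeR adjusted p = 1.78e-07) and −0.13 with library totals only (edgeR adjusted p = 0.0262).

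After 48 hours E2f2, E2f4 and E2f7 were lower with NUP-17d, and the other 7 members did not pass the test. E2f2 fell to 0.597-fold, E2f4 to 0.766-fold and E2f7 to 0.858-fold of the DMSO level. Thus 3 of 10 members were called lower and 0 higher in the quasi-likelihood fit of edgeR, at an adjusted p under 0.05. In the same fit 35.3% of all tested genes were called, 18.9% lower and 16.4% higher. DESeq2 also called E2f2, E2f4 and E2f7 lower and 0 members higher, beside 15.0% and 9.63% of the genes it tested. With library totals only, 68.7% of genes were called higher and 5.34% lower, and then 7 members were called higher and 2 lower. E2f2 and E2f4 were the 2 that remained lower in both scalings. In these bulk samples, fewer cells of a type and less RNA per cell cannot be told apart.

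**Figure D1:**
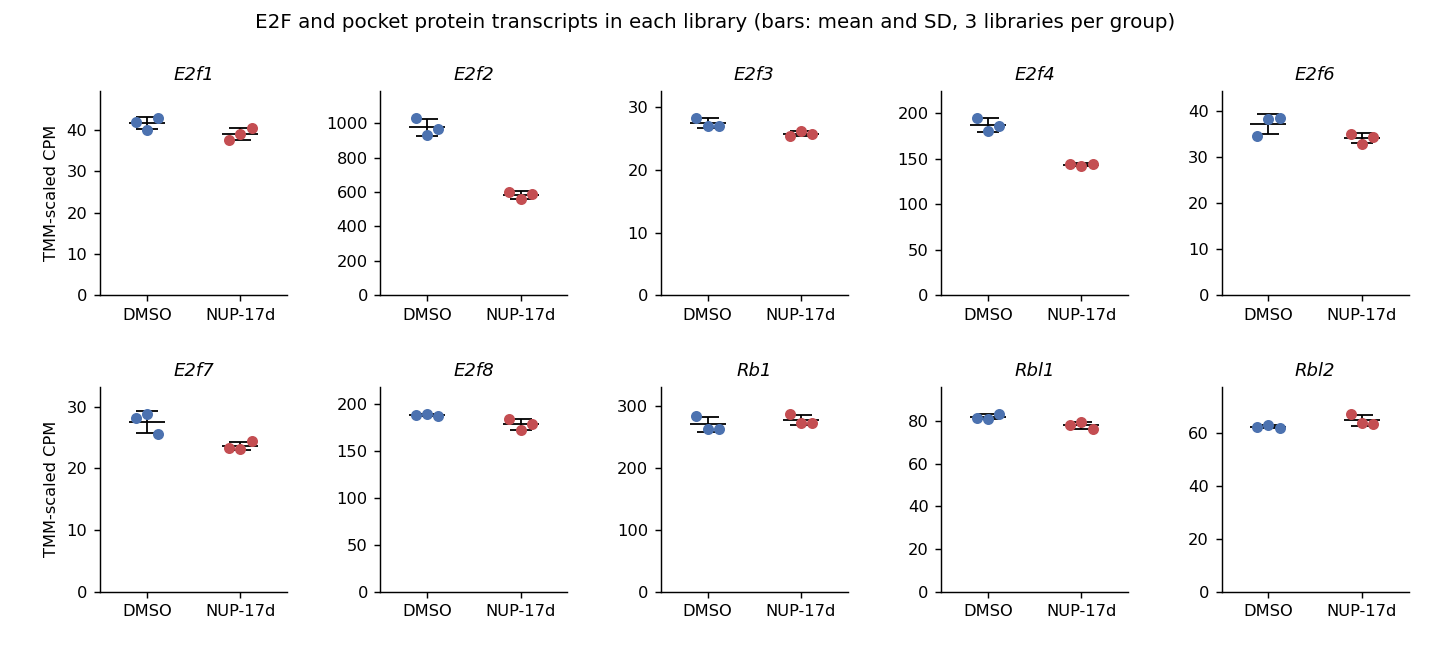
TMM-scaled CPM (vertical axes, starting at 0) of each family member in the 3 DMSO and 3 NUP-17d libraries, with 1 point per library and bars for the mean and SD. The NUP-17d points of E2f2 lie between 558 and 602 CPM, below the DMSO points at 934 to 1033 CPM, while the points of Rb1 overlap between the groups.

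Among the activators, E2f2 stood apart in both its level and its change. It lies at chr4:136172274-136196057 in GRCm38. The DMSO libraries held 1033, 934 and 964 CPM of E2f2, and the NUP-17d libraries 602, 558 and 590 CPM. The groups did not overlap, and the lowest DMSO library was well above the highest NUP-17d library. The log2 fold change was −0.74 ± 0.039 (SE, n = 3 per group, edgeR adjusted p = 3.32e-14). Among all tested genes, 97.1% had a smaller absolute change. Between 12454 and 18688 expected counts lay behind each value, so counting error was small beside the spread between libraries, which was 5.17% of the mean with DMSO and 3.86% with NUP-17d. The log2 fold change of E2f2 with library totals only was −0.48.

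The other 2 activators did not pass the test. E2f1, the activator also linked to cell death genes, lies at chr2:154559400-154569892. It was measured at 41.9, 40.1 and 43.0 CPM with DMSO and at 37.6, 39.0 and 40.4 CPM with NUP-17d. The groups overlapped, and the log2 fold change was −0.09 with a 95% interval from −0.19 to 0.0039 (adjusted p = 0.130). E2f3, at chr13:29906575-29986064, had 27.0 to 28.3 CPM with DMSO and 25.4 to 26.1 CPM with NUP-17d. Its groups did not overlap, yet its log2 fold change of −0.09 did not pass (95% interval −0.20 to 0.020, adjusted p = 0.200). In 7 of 10 members the groups did not overlap, and the same was true of 46.0% of all tested genes. With library totals only, E2f1 and E2f3 were 0.17 and 0.18 higher on the log2 scale, and both then passed (adjusted p = 0.00485 and 0.00849).

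E2f4, the repressor that pairs with the pocket proteins p107 and p130, lies at chr8:105297663-105305370. It was measured at 195, 180.5 and 186 CPM with DMSO and at 144, 142 and 145 CPM with NUP-17d. The 3 NUP-17d libraries lay close together and all lay below the DMSO libraries. The log2 fold change was −0.38 ± 0.037 (SE, n = 3 per group, edgeR adjusted p = 2.88e-09). It was −0.12 with library totals only, which still passed (adjusted p = 0.00596).

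E2f6, at chr12:16810909-16826752, had 34.7, 38.3 and 38.6 CPM with DMSO and 35.1, 33.0 and 34.4 CPM with NUP-17d. One DMSO library lay within the NUP-17d range. The log2 fold change was −0.12 ± 0.052 (SE, adjusted p = 0.0689), whereas with library totals only it was 0.14. When the first DMSO library was left out, E2f6 passed the test at −0.17 (adjusted p = 0.0197).

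The 2 atypical repressors, which both carry the E2F core shown above, were measured at very different levels. E2f7, at chr10:110745439-110787384, had 28.2, 28.8 and 25.5 CPM with DMSO and 23.3, 23.1 and 24.4 CPM with NUP-17d. The groups did not overlap, but the third DMSO library lay close to the NUP-17d range. Its log2 fold change of −0.22 ± 0.059 passed the test (SE, n = 3 per group, edgeR adjusted p = 0.00408), but with library totals only it was 0.046 and did not pass. E2f8, at chr7:48866429-48882073, had 188, 189 and 187 CPM with DMSO and 184, 172 and 179 CPM with NUP-17d. The groups did not overlap, but the log2 fold change of −0.08 ± 0.035 did not pass (adjusted p = 0.0867). Without the first NUP-17d library E2f8 passed at −0.10 (adjusted p = 0.0441). Scaled to library totals only, E2f8 was 0.19 higher on the log2 scale (adjusted p = 0.000101).

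With TMM scaling the pocket proteins showed the smallest differences among the members, but with library totals only they did not. Rb1, the founding tumor suppressor of the family at chr14:73192858-73325951, had 285, 263 and 263 CPM with DMSO and 288, 273 and 273 CPM with NUP-17d. The groups overlapped, and the log2 fold change was 0.039 with a 95% interval from −0.038 to 0.12 (adjusted p = 0.448). Rbl2, which encodes p130 at chr8:91070057-91123844, had 62.0 to 63.0 CPM with DMSO and 63.5 to 67.3 CPM with NUP-17d. Its log2 fold change was 0.056 (95% interval −0.029 to 0.14, adjusted p = 0.312). Rbl1, which encodes p107 at chr2:157145893-157204534, had 81.2 to 83.4 CPM with DMSO and 76.1 to 79.7 CPM with NUP-17d. Its log2 fold change was −0.074 (95% interval −0.15 to 0.0060, adjusted p = 0.145). With library totals only, Rb1, Rbl1 and Rbl2 were called higher, at 0.31, 0.19 and 0.32 on the log2 scale.

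The DP partners, which most E2F proteins need in order to bind DNA, moved by unequal amounts. Tfdp2 had 510, 479 and 483 CPM with DMSO and 294, 276 and 291 CPM with NUP-17d. The groups were far apart, and the log2 fold change was −0.77 ± 0.037 (SE, n = 3 per group, edgeR adjusted p = 3.76e-15), or 0.585-fold. Tfdp1 had 175, 179 and 178 CPM with DMSO and 162, 159 and 160 CPM with NUP-17d. It was lower by a small step at −0.15 ± 0.034 (SE, adjusted p = 0.000991), but with library totals only it was higher at 0.12. Read against each other within a library, which needs no scaling, the log2 ratio of Tfdp2 to Tfdp1 reads fell by 0.62 and did not overlap between the groups (exact permutation test, two-sided, p = 0.1, the smallest that 3 against 3 libraries allow). E2f5, a close relative of E2f4 that is no member here, was at 4.03 to 4.73 CPM with DMSO and 3.25 to 4.34 CPM with NUP-17d and did not pass (adjusted p = 0.290).

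**Figure D2:**
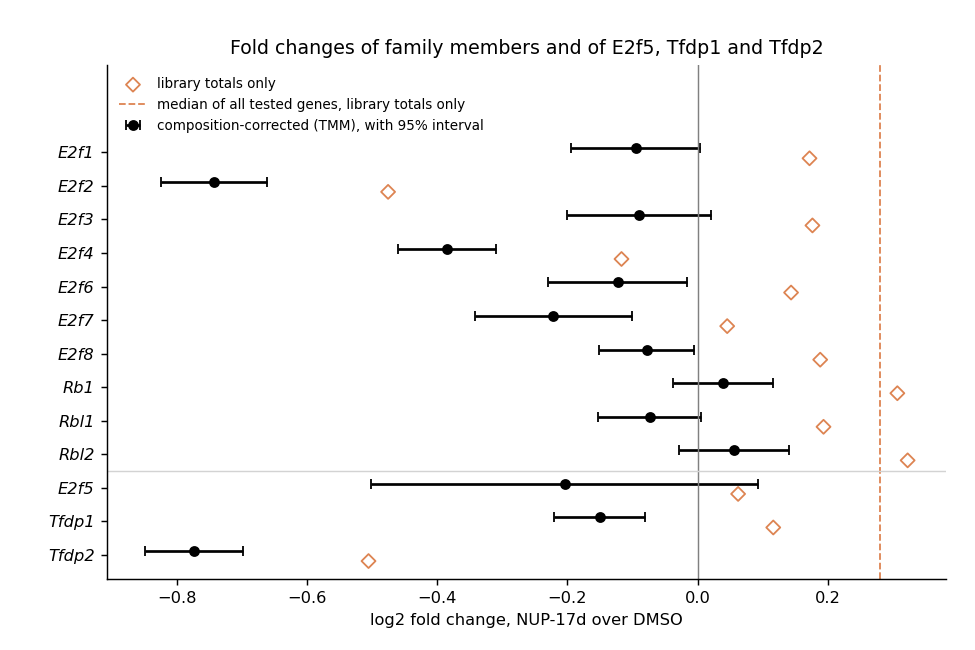
Log2 fold change (horizontal axis, NUP-17d over DMSO) of the 10 members and, below the grey line, of E2f5, Tfdp1 and Tfdp2, with filled points and 95% intervals for TMM scaling and open diamonds for library totals only. E2f2, E2f4 and Tfdp2 lie below 0 in both scalings, whereas E2f1, E2f3, E2f6, E2f7, E2f8, Rbl1, E2f5 and Tfdp1 change sign between them, and the dashed line marks the median of all tested genes at 0.28 with library totals only.

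Levels of different genes were compared by FPKM, the deposited measure per transcript length and library total, which accounts for transcript length but not for library composition. With DMSO, E2f2 was the most abundant member at 198 ± 5.02 FPKM (SD, n = 3), followed by E2f4 at 83.7 ± 1.28 FPKM, Rb1 at 52.1 ± 1.12 FPKM and E2f8 at 45.6 ± 1.32 FPKM. Rbl1 at 16.1, E2f6 at 13.7, E2f1 at 13.7 and Rbl2 at 11.4 FPKM formed a middle tier. E2f3 and E2f7 were lowest, at 4.93 and 4.43 FPKM. In this order the only neighbours whose libraries overlapped were E2f6 and E2f1. With NUP-17d the 5 most abundant members came in the same order, with E2f2 at 142 ± 4.28 FPKM and E2f4 at 77.4 ± 0.537 FPKM. There the libraries of E2f1 and E2f6 overlapped, as did those of E2f6 and Rbl2. The cells thus held far more E2f2 RNA than E2f1 or E2f3 RNA in both groups.

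The share of each gene in the summed FPKM of the 7 E2F members does not depend on how libraries are scaled. E2f2 made up 55.2%, 53.6% and 54.2% of E2F transcripts with DMSO and 45.9%, 45.0% and 45.5% with NUP-17d. Its share was lower by 8.92 percentage points, with no overlap between the groups. E2f8 took up the largest part of the difference, with 12.5% ± 0.493 (SD, n = 3) with DMSO and 16.7% ± 0.199 in the NUP-17d group. E2f4, although its own level fell, went from 23.0% ± 0.108 to 24.8% ± 0.361, because E2f2 was lower by more. The other shares were 3.77% and 4.96% for E2f1, 3.77% and 4.87% for E2f6, 1.36% and 1.80% for E2f3, and 1.22% and 1.47% for E2f7. None of the 7 shares overlapped between the groups, and each reached p = 0.1, the smallest the exact permutation test allows with 3 libraries per group. Shares of one pool are tied to each other, so these are not 7 separate results.

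**Figure D3:**
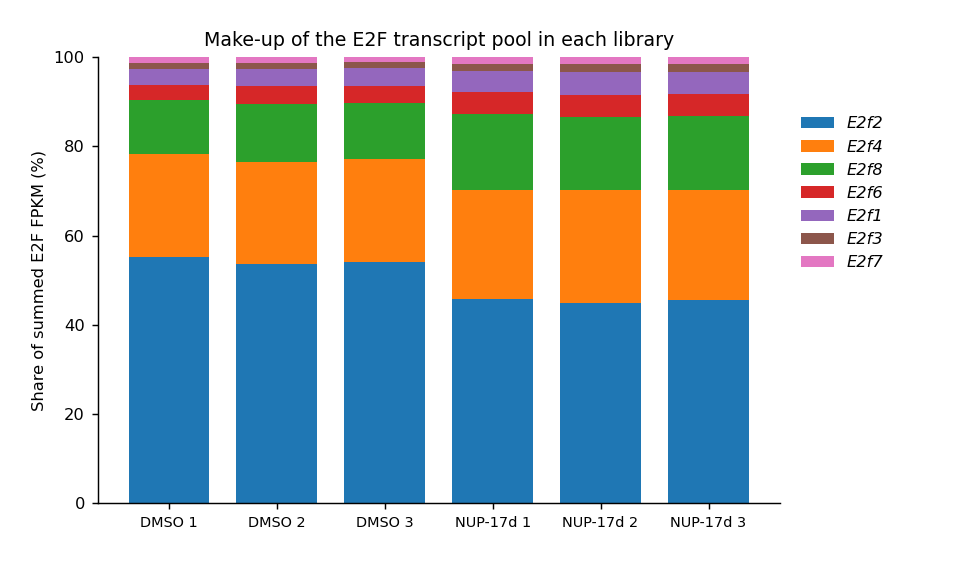
Share of each E2F member in the summed FPKM of the 7 E2F members (vertical axis, percent) in each of the 6 libraries. The E2f2 segment fills 53.6% to 55.2% of each DMSO bar and 45.0% to 45.9% of each NUP-17d bar, and the E2f8 segment is larger in every NUP-17d bar.

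Within the pocket proteins the make-up was nearly even between the groups. Rb1 made up 65.5% ± 1.17 (SD, n = 3) of the summed pocket protein FPKM with DMSO and 66.4% ± 0.380 with NUP-17d (exact permutation p = 0.4). Rbl2 stood at 14.3% and 14.6% (exact permutation p = 0.3), and Rbl1 at 20.3% and 18.9%, without overlap (exact permutation p = 0.1). The ratio of summed E2F to summed pocket protein FPKM was 4.60, 4.50 and 4.62 with DMSO and 3.17, 3.16 and 3.30 with NUP-17d. The balance of E2F over pocket protein RNA was thus lower in every NUP-17d library (exact permutation p = 0.1). In TMM-scaled CPM the E2F sum was 1487 ± 56.7 (SD, n = 3) with DMSO and 1028 ± 30.1 with NUP-17d. Without E2f2 it was 509 ± 6.23 and 444 ± 7.72, and the pocket protein sum was 415 and 421 CPM.

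All 45 pairs of members were also compared as log2 ratios of their reads within each library. In 26 pairs the groups did not overlap, and these included all 9 pairs with E2f2 and all 9 with E2f4. The share of such pairs among other tested genes was not computed, so this count is not a trait of the family. Taken singly, 46.0% of all tested genes did not overlap in TMM-scaled CPM. The exact permutation p of these 26 pairs was 0.1, or 0.173 after Benjamini-Hochberg adjustment over the 45 pairs. The largest difference was that of E2f2 to Rbl2, which fell by 0.80 ± 0.054 (SE), followed by E2f2 to Rb1, which fell by 0.78 ± 0.027 (SE). E2f2 to E2f4 fell by 0.36 ± 0.027 (SE), so E2f2 was lower even against the next most affected member. The ratio of E2f1 to E2f8 moved by −0.016, that of E2f8 to Rbl1 by −0.0049 and that of Rb1 to Rbl2 by −0.016, and in each of these 3 pairs the groups overlapped.

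Since the erythroid markers moved with the treatment, each member was set against the sum of the 10 erythroid markers in the same library. The log2 ratio of E2f2 to this sum was −4.64, −4.68 and −4.65 with DMSO and −4.68, −4.73 and −4.73 with NUP-17d. The groups overlapped and differed by −0.054 ± 0.020 (SE, exact permutation p = 0.2). For Tfdp2 the difference was −0.084 ± 0.012 (SE, exact permutation p = 0.1, no overlap). The sum is weighted to the most abundant markers, and 8 of the 10 single markers fell less than E2f2, with a median log2 fold change of −0.63. Slc4a1, the band 3 anion exchanger, was the largest term of the sum. Without it, in an alternative chosen after the data were seen, the differences were −0.074 for E2f2, no longer overlapping, and −0.10 for Tfdp2. The ratio of E2f4 to the full sum rose by 0.31, and those of the other 8 members by 0.47 to 0.75. None of these 9 overlapped between the groups. The sum itself fell, so a gene that did not change also rises against it, and these rises add nothing to the fold changes. The share of all tested genes that rise in this way was not computed. Among the single markers, Klf1, a master regulator of erythroid genes, moved least, at −0.24 on the log2 fold change scale. E2f2 at −0.74 lay beside Slc4a1 at −0.71 and Alas2, the first enzyme of heme synthesis, at −0.76.

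The genes most like E2f2 over the 6 libraries were sought among 9753 other tested genes by Pearson's r of log2 CPM. The top 3 were Brpf3, a scaffold of a histone acetyltransferase complex, Apol10a and Ranbp10, with r of 0.9996 for Brpf3. The libraries form 2 separate groups, and 1146 of the genes compared had r over 0.95, so r separates few of these genes from each other. Ranbp10 was at 1560 CPM with DMSO and 944 CPM with NUP-17d, or −0.73 on the log2 fold change scale.

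The kinases that release E2F from pocket proteins, with their cyclins and inhibitors, were followed as a list of 16 genes. Of 14 that could be tested, 1 was called higher and 7 lower, with a median log2 fold change of −0.17, beside 0.014 over all tested genes, of which 16.4% were called higher and 18.9% lower. In the fit with library totals only, 5 were called higher and 3 lower, beside 68.7% and 5.34% of all genes. The D cyclins and their kinases, which phosphorylate pocket proteins early in G1, moved by unequal amounts. Ccnd3 was at −0.040, Cdk4 at −0.0094 and Ccnd1 at −0.13, none of which passed, while Cdk6 was higher at 0.11 ± 0.034 (SE, edgeR adjusted p = 0.0141) and Ccnd2 was lower at −0.36 ± 0.046 (SE, adjusted p = 4.76e-07). Ccnd3, Cdk4 and Cdk6 were called higher with library totals only, at 0.23, 0.26 and 0.38, and Ccnd2 did not pass. The late G1 cyclins, themselves E2F targets, fell further, Ccne1 by 0.55 and Ccne2 by 0.44 on the log2 scale. Their kinase Cdk2 was at −0.058 and did not pass. Cdkn1b, the CDK inhibitor p27, fell from 481 ± 17.2 CPM to 351 ± 12.4 CPM (SD, n = 3), a log2 fold change of −0.45 ± 0.037 (SE, adjusted p = 1.26e-10). Ccne1, Ccne2 and Cdkn1b were still lower with library totals only, at −0.29, −0.17 and −0.19.

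The partners of the repressor members were read as 3 lists, beside 18.9% of all tested genes called lower and 16.4% higher with TMM scaling, and 5.34% and 68.7% with library totals only. Of 7 MuvB core genes with Mybl2 and Foxm1, which build the DREAM complex and its activating counterpart, 4 were called lower and 0 higher with TMM scaling, with a median of −0.11, but with library totals only 4 were called higher and 0 lower. Mybl2 was at −0.30, Lin52 at −0.35 and Lin37 at −0.21. With library totals only none of these genes passed, and Lin37 was at 0.060. Of 9 Polycomb partners of E2f6, 2 were called higher and 1 lower with TMM scaling, a share near the 35.3% over all tested genes, and 8 higher and 0 lower with library totals only. Rnf2, a ubiquitin ligase of histone H2A, was higher at 0.23 and Yaf2 at 0.21, in both scalings, and Max was lower at −0.16 but higher at 0.10 with library totals only. Of 7 corepressors that bind pocket proteins, 1 was called higher and 3 lower with TMM scaling, and 5 higher and 0 lower with library totals only. Sin3b, a scaffold of histone deacetylases, was higher at 0.19, and Kdm5a, a histone H3K4 demethylase first found as an Rb1-binding protein, was lower at −0.27, with −0.0067 under library totals only. Arid4a was lower at −0.16, and at 0.11 with library totals only, which did not pass.

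All 3 genes that direct E2F proteins to the proteasome were called lower by edgeR with TMM scaling, beside 18.9% of all tested genes, while DESeq2 did not call Skp2. Fzr1 was at −0.30, Ccnf at −0.20 and Skp2 at −0.19. Fzr1 was at −0.033, Ccnf at 0.071 and Skp2 at 0.074 with library totals only, and none passed.

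Target genes of the family were read from 2 lists, of which the first also holds Ccne1 and Ccne2. Of 51 G1/S genes that E2F proteins activate, 37 were called lower and 0 higher with TMM scaling, but with library totals only 24 were called higher and 4 lower, so the direction of this list depends on the scaling. Over all tested genes 18.9% were called lower and 16.4% higher with TMM scaling, and 5.34% and 68.7% with library totals only. Its median log2 fold change was −0.16, beside 0.014 for all tested genes, and with library totals only 0.11 beside 0.28. Between the 2 scalings the fold changes of all genes shift by nearly the same amount. By construction the list therefore lay below the median of all genes by a similar step in both, and the second step adds nothing to the first. Orc1, a subunit of the origin recognition complex, fell by 0.63, Rrm2, the small subunit of ribonucleotide reductase, by 0.57, and Ccne1 by 0.55 on the log2 scale. These 3 were lower in both scalings, at −0.36, −0.30 and −0.29 with library totals only. Rrm2 was measured at 400, 388 and 400 CPM with DMSO and at 270, 264 and 265 CPM with NUP-17d. Since genes are named here for a low p, its small spread does not stand for the list. The highest value in the list was 0.037.

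Of 30 G2/M genes with DREAM sites, 24 were called lower and 0 higher with TMM scaling, but with library totals only 13 were called higher and 0 lower. Over all tested genes these shares were 18.9% lower with TMM scaling and 68.7% higher with library totals only. The median of the list was −0.18, beside 0.014 for all tested genes, and with library totals only 0.083 beside 0.28. Mki67, the Ki-67 antigen of cycling cells, was at 2274 ± 77.5 CPM with DMSO and 1816 ± 132 CPM with NUP-17d (SD, n = 3), which is −0.32 on the log2 scale. Nusap1, a spindle protein, was at −0.31 and Cdc25b, a phosphatase that activates CDK1, at −0.26. With library totals only these 3 were at −0.056, −0.044 and 0.0071, and none passed. All 30 genes lay within a narrow band from −0.35 to −0.071, a smaller change than that of E2f2.

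**Figure D4:**
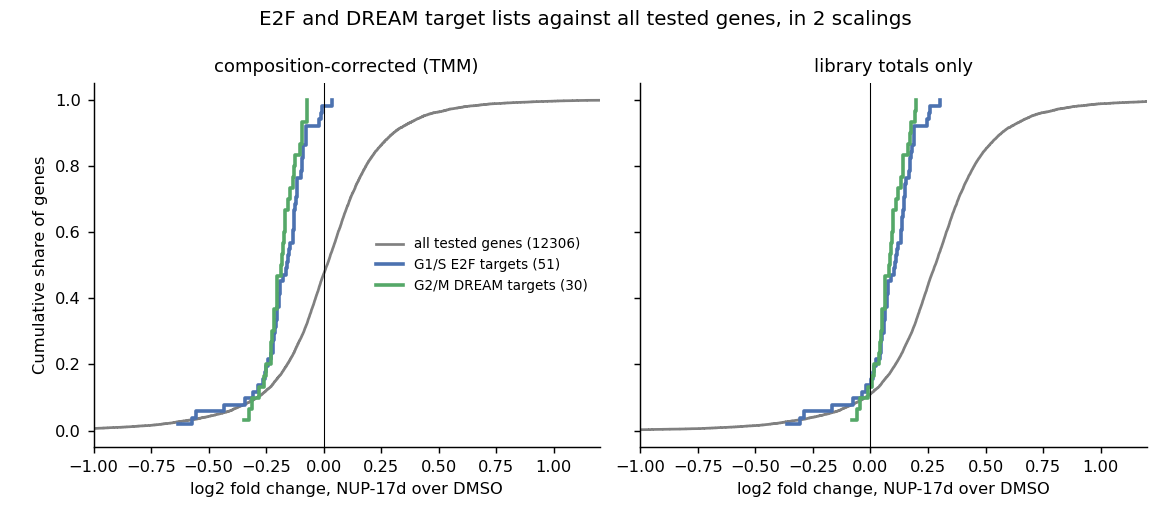
Cumulative share of genes (vertical axis) by log2 fold change (horizontal axis, NUP-17d over DMSO) for the 51 G1/S genes, the 30 G2/M genes and all 12306 tested genes, with TMM scaling on the left and library totals only on the right. Except at the lowest values, both lists lie to the left of all genes in both panels, but most of their genes are below 0 on the left and above 0 on the right.

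Outside the cell cycle, 2 further sets of E2F-linked genes were read. Of the 4 germline genes in the files that E2f6 is known to repress, only Stag3 had enough counts to be tested. It was at 3.77 CPM with DMSO and 3.13 CPM with NUP-17d (adjusted p = 0.173), so no difference was detectable for it at this depth. Of 6 tested cell death genes linked to E2f1, 1 was called lower and 0 higher with TMM scaling, beside 18.9% and 16.4% of all tested genes, and 1 lower and 4 higher with library totals only, beside 5.34% and 68.7%. The gene called lower was Bbc3 in both fits, which encodes PUMA, at 299 ± 16.8 CPM with DMSO and 222 ± 9.79 CPM with NUP-17d (SD, n = 3). Its log2 fold change was −0.43 ± 0.041 (SE, edgeR adjusted p = 2.13e-09). Apaf1, which builds the apoptosome, was at 0.074 and Pmaip1, which encodes NOXA, at −0.20, and neither passed.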

How the data were processed

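One table per library was used. Expected counts (estimated reads per gene, not normalized) and FPKM (scaled to transcript length and library total) were made and deposited by the authors, with a transcript length column. The build is mm10 in the submitters' processing notes, and aligner and counter are not given in the sources used here. A gene absent from a table was taken as 0. Between 27.8% and 28.5% of count values were not whole, so they were rounded. Counts were filtered with filterByExpr, scaled by TMM and tested with edgeR 4.0.16 in R 4.3.3 (glmQLFit and glmQLFTest, Benjamini-Hochberg over 12306 genes, threshold 0.05). Intervals are 95% and cover the spread between libraries. DESeq2 1.42.0, limma 3.58.1 on log2(FPKM + 1), library totals only, no filter, hemoglobin genes removed, a replicate block and leaving out each library were alternatives. Shares and ratios were compared by two-sided exact permutation tests (SciPy 1.17.1), which cannot go below 0.1 with 3 libraries against 3. The scripts were tested on simulated data. The simulated counts for the fits held balanced changes and no built-in shift in library composition, so they do not bear on the choice of scaling.

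Genes are named by rule: all members, E2f5, Tfdp1 and Tfdp2, selected D cyclins and kinases, Plek2, up to 3 genes with the lowest p in each list, the erythroid markers beside the ratios, and the 3 genes most like E2f2, among those with a mean count of at least 100. Outside this rule, C1qa, Cd68, Mcpt8 and Cpa3 were named after the data were seen, as the lowest and highest of their marker sets. Gata1 was named beside Klf1, also outside this rule. The members and lists were chosen with earlier results of these data known. No columns of other samples were present (0). Coordinates and promoter windows are from RefSeq, GRCm38.p6, the assembly called mm10. The strand setting of the counting is not given in the sources used here, so reads of overlapping antisense genes may be included.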

Additional observations from a re-analysis of the deposited data

How the results depend on the processing

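The fall of E2f2 and of E2f4 kept its direction and passed the test in all 14 alternatives, with log2 fold changes between −0.78 and −0.48 for E2f2 and between −0.41 and −0.11 for E2f4. Leaving out the TMM factor, or using FPKM, moved many other calls. The factors were 0.8865, 0.9302 and 0.9183 with DMSO and 1.1022, 1.1071 and 1.0822 with NUP-17d. Without them every log2 fold change shifts upward by nearly the same amount. Why the make-up of the libraries differs was not tested. Library totals only gave 9115 called genes, 8458 higher and 657 lower, against 4346 called genes with TMM, and limma on log2(FPKM + 1), on log2(FPKM + 0.1) and on log2(FPKM + 1) without a filter gave 8494, 8480 and 8652 calls, of which 7895, 7880 and 7997 were higher and 599, 600 and 655 lower. DESeq2 called 1162 genes higher. Members called higher were 7 with library totals only and 7, 7 and 6 in the 3 limma fits. In the same 4 fits the G1/S genes gave 24, 25, 25 and 23 calls higher and 4, 4, 4 and 4 lower, and the G2/M genes 13, 13, 13 and 14 higher and 0, 0, 0 and 0 lower. The Polycomb partners gave 8, 8, 8 and 7 calls, the cell death genes 5, 5, 5 and 5, and the turnover genes 0, 0, 0 and 0. Named genes that turned from negative to positive and were called in at least one of the fits compared are given with library totals only, limma on log2(FPKM + 1) and limma on log2(FPKM + 0.1) in that order: E2f1 0.17, 0.16 and 0.17, E2f3 0.18, 0.16 and 0.18, E2f6 0.14, 0.14 and 0.15, E2f7 0.046, 0.042 and 0.051, E2f8 0.19, 0.19 and 0.19, Rbl1 0.19, 0.18 and 0.19, Tfdp1 0.12, 0.12 and 0.12, Lin37 0.060, 0.067 and 0.069, Max 0.10, 0.11 and 0.11, Arid4a 0.11, 0.11 and 0.11, Ccnf 0.071, 0.073 and 0.075, Skp2 0.074, 0.068 and 0.078, Cdc25b 0.0071, 0.0099 and 0.010, Ccnd3 0.23, 0.23 and 0.23, Cdk4 0.26, 0.26 and 0.26, Cdk2 0.21, 0.20 and 0.21. E2f5, Ccnd1 and Pmaip1 also turned positive with library totals only, at 0.062, 0.13 and 0.063, without a call in either fit. Leaving out the FPKM filter gave the same fold changes as log2(FPKM + 1). Measured in CPM instead of FPKM, the difference in share was 0.662 points for E2f3, 1.36 for E2f4, 0.445 for E2f7 and 4.67 for E2f8.

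Leaving out each library in turn gave 3713 to 4008 calls over all genes, 3 to 4 members called lower and 0 higher, 30 to 36 G1/S genes and 23 to 26 G2/M genes called lower, and a difference in the E2f2 share between −9.28 and −8.48 points. Skp2 lost its call without the first or the third DMSO library or the third NUP-17d library, Cdk6 without the first DMSO library, Yaf2 without the second, Arid4a without the third and Lin37 without the first NUP-17d library. DESeq2 did not call Skp2 and Yaf2. A fit with the replicate number as a block gave 4543 calls over all genes, 3 members lower, 39 G1/S genes and 25 G2/M genes lower, and changed no call on a member. The labels do not say whether same-numbered libraries belong together. Deviations of same-numbered libraries correlated at 0.113, 0.0432 and 0.0234, and those of other-numbered pairs at −0.108 to 0.0825. The third DMSO library correlated best with the second NUP-17d library. As deviations from a mean of 3 libraries, these values cannot decide whether libraries shared a culture or batch. Removing the hemoglobin genes or the low-count filter left every call on a member in place. Depth limits low genes such as E2f5 and Stag3, with 61 to 96 expected counts per library.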
